A study of Homo sapiens with 4 samples.

Results

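The genes described here encode the parts of the inflammasome and the proteins that carry out inflammatory cell death. They are the sensors NLRP1 and NLRP3, the adaptor PYCARD, the caspase genes CASP1, CASP4, CASP5 and CASP8, the CASP1 decoy CARD16 and the pore-forming gasdermins GSDMD and GSDME. They were chosen by gene name, and all 10 have a row among the 27356 genes of the tables. RNA sequencing of polyadenylated RNA was done on 4 libraries of HaCaT, a spontaneously immortalised human keratinocyte line. The 2 M5 libraries came from cells given M5 for 72 h, a mix of the 5 cytokines TNF-α, oncostatin M, IL-17, IL-22 and IL-1α at 10 μg/L each, from a plating density of 50%, and the 2 PBS libraries from cells given phosphate-buffered saline instead. Groups were taken from the titles. The M5 libraries also carry a treatment tag of 25 μM DAC, an abbreviation the labels do not explain, which conflicts with their titles and protocol. All libraries share the one line and medium with fetal bovine serum, and no label ties the replicates to separate cultures. The p-values therefore speak only to how these libraries vary, and that variation may be technical.

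An inflammasome is a protein platform that forms in the cytosol when a sensor meets a microbial product or a cell stress. The sensor binds the adaptor ASC, the product of PYCARD, which gathers caspase-1. Caspase-1 then cuts the precursors of interleukin 1β and interleukin 18, and cuts gasdermin D, whose released fragment forms pores through which these cytokines leave and the cell swells and dies. In human keratinocytes NLRP1 is the best known sensor, while NLRP3 is best known from macrophages. Caspase-4 and caspase-5 bind bacterial lipopolysaccharide directly and caspase-8 starts apoptosis from death receptors. Gasdermin E is opened during apoptosis.

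The sensor NLRP1 and the caspase genes CASP1 and CASP4 rose 2.90- to 3.85-fold in M5, and CASP8 and GSDME rose 1.31- and 1.45-fold. NLRP3 was read in both M5 libraries and in neither PBS library. The adaptor PYCARD and the decoy CARD16 did not pass the test, GSDMD was near the limit of counting in every library, and CASP5 was read only a few times in M5. Levels are given in FPKM, the authors' length- and depth-scaled fragment values. Tests are edgeR's quasi-likelihood test on the counts of genes whose FPKM averaged 1 or more, and an adjusted p under 0.05 is called a change. Of the 10 genes 7 passed that filter, 5 of them rose and 0 fell. Of all 10809 tested genes, 28.8% rose and 27.1% fell in the same fit. NLRP1 and CASP4 averaged under 1 FPKM in PBS and passed the filter through M5 alone, so the count of 5 of 7 is a description only. In the fit without a filter, where 12.4% of 27356 genes rose and 9.99% fell, 6 of the 10 rose and 0 fell. These genes were picked with earlier results of these data known, so no test was made of the group.

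The libraries held 18992988 and 19749612 counts in M5 and 15858644 and 16051974 counts in PBS. Replicate counts spread wider than sampling gives: the per-gene chi-square had a median of 1.75 in M5 and 0.997 in PBS, where 0.455 comes from sampling alone. All 8 keratinocyte markers were expressed, led by KRT14, with a summed FPKM of 2521 and 2330 in M5 and 2601 and 2549 in PBS. Of the 8, 6 rose and 1 fell, KRT5, with a log2 value of -0.96 (edgeR adjusted p = 9.27e-12), where 28.8% of all tested genes rose and 27.1% fell. Of the 6 myeloid and leukocyte markers, PTPRC and LYZ have no row, CSF1R, ITGAM and CD3E had at most 7 counts in any library, and CD14 had 4.64 and 5.10 FPKM in M5 against 2.30 and 1.55 in PBS. The summed FPKM of the 5 fibroblast markers was 0.667 and 0.428 in M5 and 0.584 and 0.574 in PBS, led by COL1A1. That of the 4 melanocyte markers was 0.731 and 0.528 in M5 against 0.512 and 0.455 in PBS, led by PMEL, and that of the 3 endothelial markers 0.436 and 0.623 in M5 against 0.281 and 0.281 in PBS, led by CDH5. Without a filter CDH5 was called higher, at 0.420 and 0.623 FPKM in M5 against 0.157 and 0.207 FPKM in PBS, and VWF lower, with 3 and 0 counts in M5 against 19 and 11 in PBS, while PECAM1 had at most 1 count in any library. Because of the DAC tag, 8 germline genes known to be silenced by DNA methylation in somatic cells were also read. Of these 2 have a row and the highest, SYCP3, had 7 and 2 counts in M5 and 9 and 1 in PBS. Whether the M5 cells were given DAC was not tested.

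**Figure D1:**
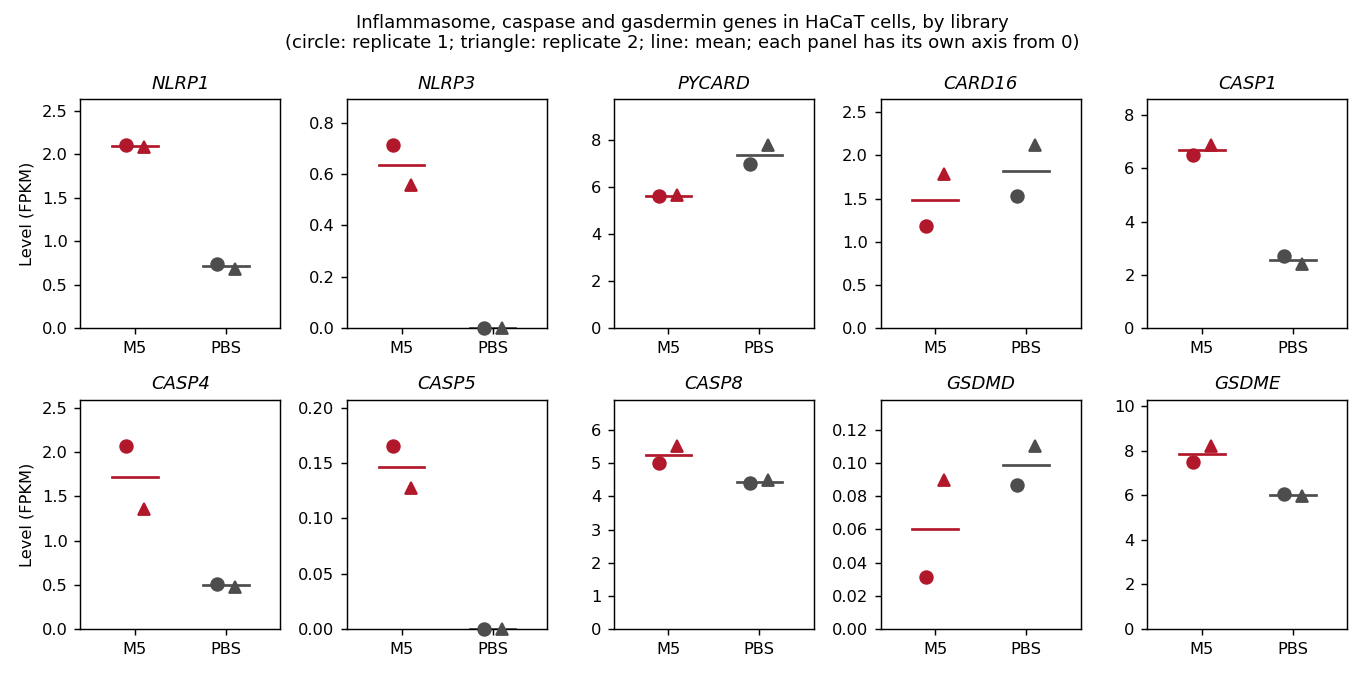
Level in FPKM of each of the 10 genes in the 4 libraries, M5 in red and PBS in grey, with replicate 1 as a circle, replicate 2 as a triangle and the group mean as a line. NLRP1, NLRP3, CASP1, CASP4, CASP5, CASP8 and GSDME lie higher in both M5 libraries, PYCARD lies lower, and the groups overlap for CARD16 and GSDMD.

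Of the sensors, NLRP1 (ENSG00000091592, chromosome 17, 5499427 to 5619424, minus strand, GENCODE 29 on GRCh38) had 2.11 and 2.08 FPKM in M5 libraries, against 0.735 and 0.683 FPKM in PBS libraries. Both M5 libraries lay above both PBS libraries, as they did for 26.8% of the tested genes. In bulk RNA, more cells with the transcript and more transcript per cell cannot be told apart. The counts behind these levels were 806 and 828 in M5 and 235 and 221 in PBS, and the rise was 3.28-fold, or 1.71 on the log2 scale (SE 0.10; edgeR adjusted p = 3.75e-11). The authors' length for NLRP1 is 20158 bp, while the NLRP1 transcript used here from GENCODE 29 has 4788 bases, so its FPKM depends on that choice of length.

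NLRP3, the sensor of ion loss and membrane stress, did not pass the filter, with a mean of 0.317 FPKM. NLRP3 (ENSG00000162711, chromosome 1, 247416156 to 247449108, plus strand) had 69 and 56 counts in M5 and 0 counts in both PBS libraries. Its level was 0.713 and 0.557 FPKM in M5. Set against a floor of 3 counts over the 2 PBS libraries together, its M5 counts were 38.8-fold higher (edgeR adjusted p = 1.36e-05 in the fit without a filter). That floor bounds the PBS level only and takes the M5 counts as exact. The call was lost without M5 replicate 1 (adjusted p = 0.0853) and without M5 replicate 2 (adjusted p = 0.074), and over its alternatives the adjusted p ran from 6.69e-25 to 0.0853. Of the 6 myeloid and leukocyte markers only CD14 was called higher. PTPRC and LYZ have no row, and CSF1R, ITGAM and CD3E had at most 7 counts in any library. Whether any such cells were present was not tested.

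The adaptor gene did not pass the test. PYCARD (ENSG00000103490, chromosome 16, 31201485 to 31203450, minus strand), which encodes ASC, had 5.61 and 5.64 FPKM in M5, against 6.95 and 7.77 FPKM in PBS. Both M5 libraries lay below both PBS libraries, as they did for 53.6% of the tested genes, and the groups did not overlap in either direction for 80.4%. The log2 value was -0.24 (SE 0.16, edgeR adjusted p = 0.221). Scaling by library totals gave -0.39, which passed (adjusted p = 0.0414), where the median of all tested genes also moved by -0.15. Over its alternatives the adjusted p ran from 0.00983 to 0.604. The antisense gene PYCARD-AS1, not analysed here, covers 59.7% of the exon bases of PYCARD, and the library kit does not mark strand, so reads of the pair cannot be told apart.

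Relative to PYCARD, NLRP1 and CASP1 stood higher in M5. The level of CASP1 was 1.16 and 1.22 times that of PYCARD in M5 libraries, against 0.389 and 0.311 times in PBS libraries. The level of NLRP1 was 0.375 and 0.369 times that of PYCARD in M5, against 0.106 and 0.0879 times in PBS. These ratios of FPKM within a library do not depend on the scaling between libraries, and the groups did not overlap for either. An exact permutation test of 2 against 2 libraries cannot go below p = 0.333, two-sided, so it was not used to call them.

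CASP1, CASP4, CASP5 and CARD16 sit side by side on the minus strand of chromosome 11, from 104942866 to 105101431, a span of 159 kb. CASP1 (ENSG00000137752, 105025443 to 105035250), the caspase of the canonical inflammasome, had 6.52 and 6.87 FPKM in M5, against 2.70 and 2.42 FPKM in PBS. It rose 2.90-fold, or 1.54 on the log2 scale (SE 0.12, edgeR adjusted p = 4.32e-09). Both M5 libraries lay above both PBS libraries, as for 26.8% of the tested genes. CASP4 (ENSG00000196954, 104942866 to 104969436), the lipopolysaccharide-binding caspase of epithelial cells, had 2.07 and 1.36 FPKM in M5, against 0.511 and 0.477 FPKM in PBS. It rose 3.85-fold, or 1.94 on the log2 scale (SE 0.23; edgeR adjusted p = 6.59e-07), which was 1.61 without M5 replicate 1 and 2.22 without M5 replicate 2. With a mean of 1.10 FPKM, CASP4 lay just above the filter, and its M5 libraries differed more from each other than those of CASP1.

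CASP5 (ENSG00000137757, 104994235 to 105023168), a second lipopolysaccharide-binding caspase next to CASP4, had 5 and 4 counts in M5 and 0 in both PBS libraries. Its M5 counts, taken as exact, were 2.80-fold above the floor of 3 counts over both PBS libraries together. It was not called in the fit without a filter (edgeR adjusted p = 0.121), while limma on log2(FPKM + 1) without a filter called it (adjusted p = 0.0361). Its adjusted p over the alternatives ran from 0.0342 to 0.343. A level in PBS below the counting limit was not detectable. In a single PBS library 3 counts correspond to 0.177 and 0.176 CPM, whereas the floor above is 3 counts over both.

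CARD16 (ENSG00000204397, 105041326 to 105101431) encodes a decoy made almost only of the recruitment domain of caspase-1. It had 1.18 and 1.78 FPKM in M5 and 1.53 and 2.12 FPKM in PBS, so the groups overlapped, and its log2 value was -0.15 (SE 0.30, edgeR adjusted p = 0.703). The value was -0.47 without M5 replicate 2 and 0.12 without M5 replicate 1. The level of CASP1 was 5.51 and 3.85 times that of CARD16 in M5 libraries, against 1.77 and 1.14 times in PBS libraries. This ratio is uncertain, since both genes begin with nearly the same coding sequence. The starts of both coding sequences, from the start codon and from GENCODE 29 transcripts, are shown with the bases that differ in capitals. A read from this stretch that covers none of the differing bases matches both genes.
CASP1: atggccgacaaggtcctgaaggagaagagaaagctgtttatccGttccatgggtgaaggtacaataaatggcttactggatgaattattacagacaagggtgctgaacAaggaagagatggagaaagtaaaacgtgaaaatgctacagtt
CARD16: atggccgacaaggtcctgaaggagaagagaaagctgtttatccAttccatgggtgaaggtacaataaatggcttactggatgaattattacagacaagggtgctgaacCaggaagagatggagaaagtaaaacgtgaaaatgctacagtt
Of these 150 bases 2 differ, and 3 of the first 270. Of all windows of 50 bases in the CARD16 transcript 18.5% also occur in a CASP1 transcript, and 6.20% of the CASP1 windows occur in CARD16. The sources used here do not say how reads matching both genes were counted.

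**Figure D2:**
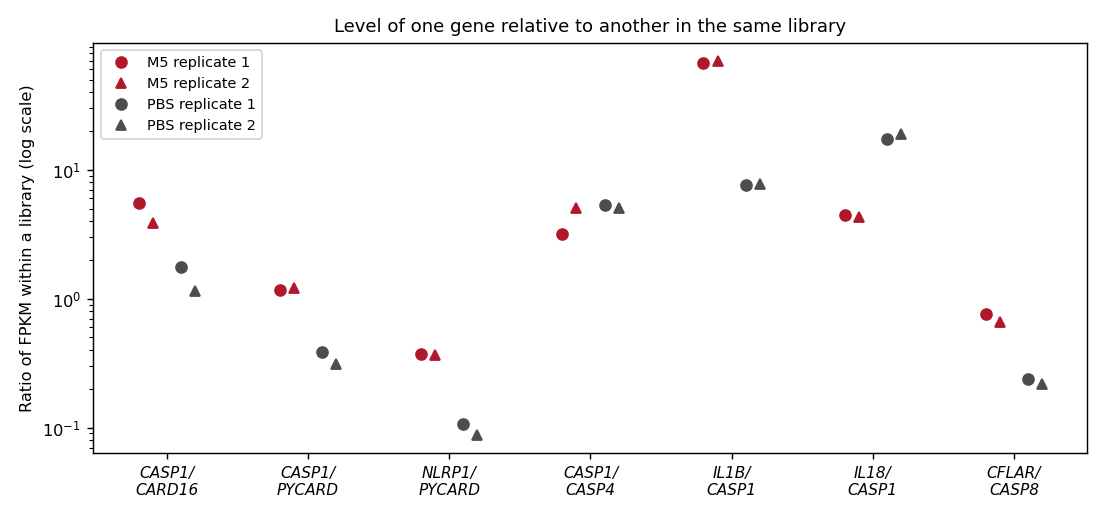
Ratio of the FPKM of a pair of genes within each library, on a log scale, M5 in red and PBS in grey. CASP1 stands 3.85 to 5.51 times above CARD16 in M5 and 1.14 to 1.77 times in PBS. With the authors' lengths, the ratio of CASP1 to PYCARD crosses 1.

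CASP8 (ENSG00000064012, chromosome 2, 201233443 to 201287711, plus strand) had 5.01 and 5.52 FPKM in M5, against 4.40 and 4.49 FPKM in PBS. The rise was 1.31-fold, or 0.39 on the log2 scale (SE 0.09, edgeR adjusted p = 0.00119). Both M5 libraries lay above both PBS libraries, as for 26.8% of the tested genes. With limma on log2(FPKM + 1) it was not called (0.20, adjusted p = 0.0588), and its adjusted p over the alternatives ran from 0.000289 to 0.0588.

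GSDME (ENSG00000105928, chromosome 7, 24698351 to 24758113, minus strand) had 7.51 and 8.22 FPKM in M5, against 6.08 and 5.99 FPKM in PBS. It rose 1.45-fold, or 0.53 on the log2 scale (SE 0.07, edgeR adjusted p = 3.96e-06). Both M5 libraries lay above both PBS libraries, as for 26.8% of the tested genes.

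GSDMD (ENSG00000104518, chromosome 8, 143553207 to 143563062, plus strand), the pore of the canonical inflammasome, had 3 and 9 counts in M5 and 7 and 9 in PBS. Its level was 0.0311 and 0.0896 FPKM in M5 and 0.0868 and 0.110 FPKM in PBS, and the groups overlapped. The ratio of its counts, scaled by library, was 0.699 with an exact (Clopper-Pearson) 95% interval from 0.302 to 1.57, which covers counting error only (edgeR adjusted p = 0.656 without a filter). GSDMD has 16 annotated transcripts outside the primary genome assembly. Among 1039 autosomal coding genes with such transcripts, 9.24% reached a mean of 1 FPKM in these tables, against 51.1% of the 17980 others, and none of the other 9 genes described here has such transcripts. Whether that lowered the GSDMD counts was not tested.

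The order of levels by FPKM, which rests on the authors' lengths, changed with M5. In M5 the order by mean FPKM was GSDME (7.86), CASP1 (6.70), PYCARD (5.63), CASP8 (5.26), NLRP1 (2.09), CASP4 (1.71), CARD16 (1.48), NLRP3 (0.635), CASP5 (0.146) and GSDMD (0.0603). The ranges of CASP4 and CARD16 overlapped, and those of the other neighbours did not. In PBS the order was PYCARD (7.36), GSDME (6.04), CASP8 (4.45), CASP1 (2.56), CARD16 (1.82), NLRP1 (0.709), CASP4 (0.494) and GSDMD (0.0985), with no overlap between neighbours, and NLRP3 and CASP5 at 0 counts. With the authors' lengths, CASP1 lay above PYCARD and CASP8 in M5 and below both in PBS.

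RefSeq promoter windows on GRCh38.p14, from 250 bases before to 50 after the start, matched 6 of the 10 genes. Those of NLRP3, CASP4 and CASP5 are shown, since all 3 genes were low in PBS and higher in both M5 libraries. Capitals mark matches on either strand to the kappa B consensus (by name), the STAT element TTCNNNGAA, the IRF element (GAAA and GAAA with NN between them), the AP-1 element TGANTCA or the TATA box TATAAA.
NLRP3, chr1:247415923-247416222, plus strand: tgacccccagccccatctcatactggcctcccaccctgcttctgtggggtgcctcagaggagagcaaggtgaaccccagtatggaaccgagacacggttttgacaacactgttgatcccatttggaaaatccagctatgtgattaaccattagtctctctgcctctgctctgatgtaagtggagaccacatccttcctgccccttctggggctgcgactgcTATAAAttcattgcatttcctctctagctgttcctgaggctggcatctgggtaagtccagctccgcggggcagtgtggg
CASP4, chr11:104968525-104968824, minus strand: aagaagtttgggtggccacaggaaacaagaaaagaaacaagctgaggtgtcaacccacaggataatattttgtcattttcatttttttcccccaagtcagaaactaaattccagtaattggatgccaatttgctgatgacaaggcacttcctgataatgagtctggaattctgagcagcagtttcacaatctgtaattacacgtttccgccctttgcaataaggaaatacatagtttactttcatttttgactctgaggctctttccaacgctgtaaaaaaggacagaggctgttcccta
CASP5, chr11:105023119-105023418, minus strand: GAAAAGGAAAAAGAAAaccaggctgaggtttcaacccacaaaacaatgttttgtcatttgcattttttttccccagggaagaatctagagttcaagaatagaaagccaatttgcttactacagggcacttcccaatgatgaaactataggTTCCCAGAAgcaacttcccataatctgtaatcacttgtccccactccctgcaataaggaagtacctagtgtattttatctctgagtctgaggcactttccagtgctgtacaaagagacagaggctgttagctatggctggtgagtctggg
The NLRP3 window holds a TATA box from -29 to -24, as 11.5% of all 35116 promoter windows hold one anywhere. The CASP5 window holds 2 overlapping IRF elements, at -250 to -241 and -244 to -235, and a STAT element at -100 to -92. Among all windows 3.57% hold the IRF element and 7.66% the STAT element. None of the 5 motifs matched in the CASP4 window, and none of these windows matched the kappa B consensus, which 11.3% of all windows match. The 3 windows of CASP8, not shown, held the STAT and IRF elements in 1 window, the AP-1 element in 2, as 7.71% of all windows do, and the TATA box in 1. The CASP4 and CASP5 windows were 76.8% identical over 280 aligned bases. They held 3 and 0 CG dinucleotides, against 23 in the PYCARD window, 35 in the GSDME window and a median of 14 over all windows. A match describes letters in the window and not binding.

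The wider pathway was read from 47 further genes grouped by role, of which 41 have a row under their listed symbol and 24 passed the filter. Of these 19 rose, 3 fell and 2 did not pass the test, where 28.8% of all tested genes rose and 27.1% fell. GBP1, GSDMA, GSDMC, IL33 and IL36G passed the filter through M5 alone. With limma on log2(FPKM + 1), 15 rose and 3 fell. Without a filter 25 of the 41 rose and 2 fell, where 12.4% of all genes rose and 9.99% fell.

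**Figure D3:**
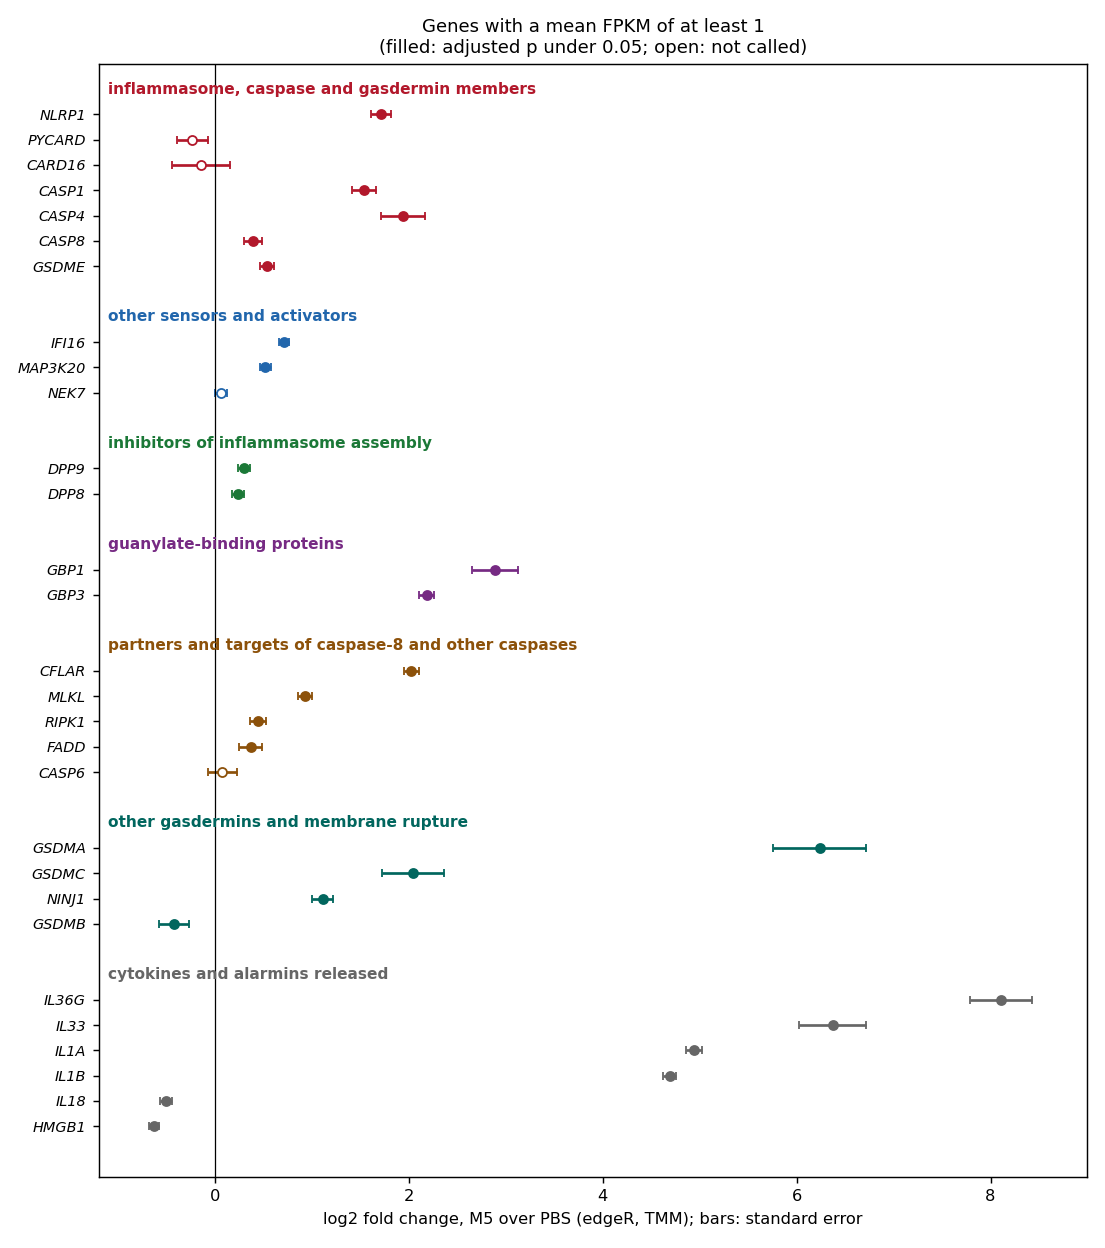
Log2 fold change of M5 over PBS (edgeR, TMM) with its standard error for the 7 tested members and for tested pathway genes, grouped by role, filled where the adjusted p is under 0.05. IL36G, IL33, GSDMA, IL1A and IL1B lie farthest to the right among the genes drawn, and IL18, HMGB1 and GSDMB are the 3 filled points left of 0.

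Of 13 other sensors and activators, 3 were tested and 2 rose, where 28.8% of all tested genes rose. IFI16, a nuclear DNA sensor, had 57.3 and 56.4 FPKM in M5 against 38.8 and 38.3 FPKM in PBS, a log2 fold change of 0.71. MAP3K20, the kinase that activates NLRP1 when ribosomes stall, rose by 0.52 on the log2 scale, and NEK7, the partner of NLRP3, had a value of 0.06 (edgeR adjusted p = 0.444). CARD8, a sensor related to NLRP1, was under the filter, with 154 and 112 counts in M5 against 163 and 184 in PBS. Its log2 value was -0.48 without a filter (edgeR adjusted p = 0.123), and it was called lower with library totals (-0.66, adjusted p = 0.0186) and with the replicate number as a block (-0.49, adjusted p = 0.0367), within a range of 0.0186 to 0.444 over its alternatives. The sensors AIM2, NLRC4, NAIP, NLRP2 and NLRP12 had at most 21 counts in any library, of which NAIP and NLRP2 have 17 and 55 transcripts outside the primary assembly, and NLRP6, NLRP7 and NLRP10 have no row. MEFV, which encodes the sensor pyrin, had 14 and 9 counts in M5 and 0 in PBS, 7.14-fold above the PBS floor (edgeR adjusted p = 0.00807 without a filter). That call was lost without either M5 library, with an adjusted p from 0.0033 to 0.233 over its alternatives. DPP9 and DPP8, proteases that hold NLRP1 inactive, rose by 0.30 and 0.24 on the log2 scale, and both calls were lost with library totals (0.14 and 0.09).

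All 5 guanylate-binding protein genes on the list, which code for proteins that coat bacteria and recruit caspase-4, rose in the fit without a filter. In that fit 12.4% of all genes rose. Of the 5 listed genes 2 passed the filter. GBP1 had 2.35 and 3.42 FPKM in M5 against 0.548 and 0.316 FPKM in PBS, or 2.89 on the log2 scale (SE 0.24; edgeR adjusted p = 4.88e-09). GBP3 rose by 2.18. GBP5 had 112 and 136 counts in M5 and 0 in PBS, 77.0-fold above the PBS floor, with a call that was lost without either M5 library. GBP2 and GBP4 rose by 3.89 and 1.81 without a filter.

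Of 11 partners and targets of caspase-8 and other caspases, 7 were tested and 6 rose, where 28.8% of all tested genes rose. CFLAR, the inhibitor of caspase-8 known as c-FLIP, had 3.81 and 3.61 FPKM in M5 against 1.05 and 0.976 FPKM in PBS, or 2.03 on the log2 scale (SE 0.08; edgeR adjusted p = 8.46e-14). Its level was 0.760 and 0.655 times that of CASP8 in M5, against 0.238 and 0.217 times in PBS. The necroptosis effector MLKL rose by 0.92 on the log2 scale. RIPK3, the kinase that activates MLKL, had 1 count in 1 M5 library and 0 in the other 3 libraries, and it has 7 transcripts outside the primary assembly.

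The other gasdermins moved apart. GSDMA, the gasdermin of the outer epidermis, had 144 and 123 counts in M5 and 0 and 3 in PBS, a ratio of 82.9 (exact 95% interval 28.1 to 405). Its log2 value of 6.24 was 5.30 without PBS replicate 1 and 10.02 without PBS replicate 2, where PBS has 0 counts and the value is no bound. GSDMC had 107 and 69 counts in M5 against 17 and 22 in PBS, a log2 fold change of 2.04 (SE 0.32). NINJ1, which ruptures the membrane after pores form, rose by 1.11. GSDMB fell by 0.42 on the log2 scale (edgeR adjusted p = 0.0277), a call lost under 6 of 12 alternatives.

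Of the 6 cytokine and alarmin genes whose products leave through such pores or from dying cells, 4 rose and 2 fell. Of all tested genes 28.8% rose and 27.1% fell, and IL33 and IL36G passed the filter through M5 alone. The caspase-1 substrates moved in opposite directions: IL1B had 439 and 476 FPKM in M5 against 20.5 and 18.8 FPKM in PBS, or 4.69 on the log2 scale (SE 0.07; edgeR adjusted p = 2.23e-20), and IL18 had 29.02 and 29.58 FPKM in M5 against 46.8 and 45.5 FPKM in PBS, or -0.50 on the log2 scale (SE 0.06; edgeR adjusted p = 8.62e-07). The level of IL1B was 67.3 and 69.3 times that of CASP1 in M5, against 7.57 and 7.79 times in PBS, whereas that of IL18 was 4.45 and 4.31 times in M5, against 17.3 and 18.8 times in PBS. IL1A rose by 4.94 and IL33 by 6.37 on the log2 scale. IL36G was read 1 and 2 times in PBS and was 305-fold higher (exact 95% interval 104 to 1480). HMGB1, a nuclear protein released on cell lysis, fell by 0.63 on the log2 scale.

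**Figure D4:**
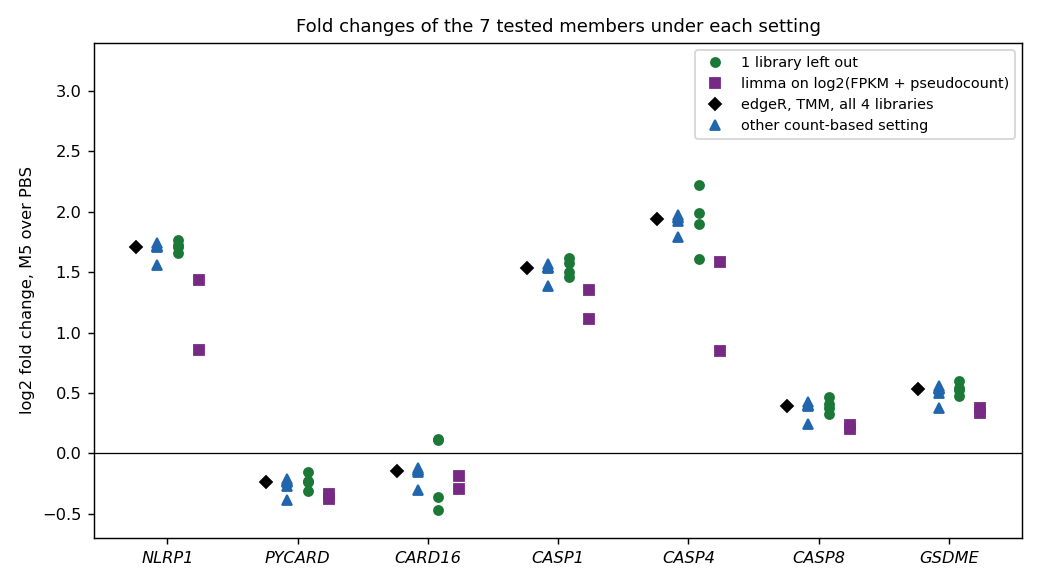
Log2 fold change of M5 over PBS for the 7 tested members with edgeR and TMM on all 4 libraries (diamonds), other count-based settings (triangles), 1 library left out (circles) and limma on log2(FPKM + pseudocount) (squares). NLRP1, CASP1, CASP4, CASP8 and GSDME stay above 0 and PYCARD below 0 at each setting shown, and CARD16 falls on both sides.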

How the data were processed

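Per the file headers, each deposited file gives a read count and an FPKM value per Ensembl gene for 1 library, in all 2 M5 and 2 PBS libraries of HaCaT cells. HISAT2, HTSeq 0.13.5 and GRCh38 come from the submitters' processing notes, without their settings.

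Counts were tested with edgeR 4.0.16 in R 4.3.3 (quasi-likelihood, TMM, two-sided, Benjamini-Hochberg over all genes tested), on genes whose FPKM averaged 1 or more. Genes below that were read from the same fit without a filter. The SE is the log2 fold change over the square root of F. Counts were also simulated for the 10809 tested genes, with 200 genes changed, 50 per fold change and as many up as down. The step recovered 40% of genes changed 1.25-fold, 78% of those changed 1.5-fold and 94% of those changed 2-fold. Of its calls 2.5% were false. In the data 55.9% of the tested genes were called, so these rates may not carry over. Alternatives used limma 3.58.1, DESeq2 1.42.0, other scalings, filters and thresholds, a replicate block and each library left out. Intervals cover counting error only, and floors bound only the PBS counts, with the M5 counts taken as exact.

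The members and gene lists were chosen with earlier results of these data known. All members are named; of each pathway group, up to 4 called genes with the largest change, the most abundant gene of each marker list, and genes annotated next to or over a member. NEK7, CARD8, IL18, HMGB1 and KRT5 are named outside this rule. Other genes named for low counts or calls without a filter were chosen after their values were seen. Positions are from GENCODE 29 on GRCh38, and promoters from RefSeq on GRCh38.p14. Values of 2 pathway genes are not reported here, though the counts by group include them. Proteins were not used here.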

Additional observations from a re-analysis of the deposited data

How the results depend on the processing

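The number of tested members that rose was 5 with each scaling, with DESeq2, at an adjusted p of 0.01, under the replicate block and without any 1 library (range 5 to 5), 4 with limma on either pseudocount, 6 without a filter, and 1 where FPKM had to average 5 or more, since fewer genes were then tested. The number that fell was 0, but 1 with library totals, with limma on log2(FPKM + 1) and on log2(FPKM + 0.1), in each case PYCARD. Of 115 values for the 10 members under the alternatives, 106 kept their side of the threshold, 4 lost a call, 5 gained one and 0 reversed one. All genes called ranged from 4204 to 6675 around 6043, with 5150 by DESeq2 and 4973 to 6006 without 1 library. Pathway genes that rose ranged from 13 to 25 around 19. The replicate numbers share only a name: the replicate 1 minus replicate 2 differences of the groups correlated at -0.0207 across genes, and the replicate block gave 6093 calls and changed none of the members' calls. CASP5, GSDMD and the PBS level of NLRP3 were near or below the limit of counting.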

Other observations

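Further genes lie beside the caspase genes of chromosome 11. CASP1P2, a CASP1 pseudogene (ENSG00000254750, chromosome 11, 105063345 to 105071541) inside the CARD16 gene, had 1 and 8 counts in M5 against 21 and 24 in PBS. Its log2 fold change without a filter was -2.40 (SE 0.64, edgeR adjusted p = 0.0191), opposite in sign to that of CASP1. The value was -1.60 without M5 replicate 1 and -4.39 without M5 replicate 2, with the call lost in both, and its adjusted p over the alternatives ran from 0.000737 to 0.132. CARD17, listed in the tables as CARD17P, and CARD18, further decoys of the caspase-1 family, had at most 2 counts in any library.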
